A study of Mus musculus with 38 samples.

Results

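The hypothalamic expression changes of 2 mouse models of Huntington disease (HD) were set against each other, gene by gene, to ask which changes the models share and which they do not. The first model is the AAV-HTT853-79Q group (79Q, n = 8), wild-type female FVB/N mice that received bilateral hypothalamic injections at 8 weeks of age of an AAV vector of serotype 5 coding for an N-terminal huntingtin (HTT) fragment with 79 CAG repeats, and whose hypothalamus was taken 4 weeks later, at 12 weeks of age. Their Control group (n = 5) consisted of wild-type female FVB/N mice of the same age without any injection. The second model is BACHD at 10 months of age (n = 5), females of the same strain with a full-length human mutant HTT transgene of 97 CAG repeats that is expressed ubiquitously, next to age-matched wild-type females (WT, n = 3). 21 of the 38 arrays of the series belong to these groups, and no array is shared between the effects. 34,760 probe sets were fitted, and 19,937 genes with a probe set of their own were compared. For each gene, the log2 difference 79Q minus Control is called the 79Q effect and the difference BACHD minus WT at 10 months the BACHD difference. The vector acts in neurons, through the human Synapsin promoter, and no group of the AAV experiment received a vector without HTT, so that injection, vector and HTT fragment cannot be told apart in the 79Q effect. Fragment against full-length HTT, neurons against all cells, and weeks against months of exposure also differ between the models and cannot be told apart.

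HD is caused by an expanded CAG repeat in HTT and affects the hypothalamus beside the striatum and cortex. The hypothalamus holds scattered neurons that make orexin, melanin-concentrating hormone, histamine, dopamine and many neuropeptides, which govern appetite, sleep, reproduction and body weight. Glia and blood-borne cells of the same tissue can switch on interferon-stimulated genes, complement and antigen presentation, and the sterol enzymes supply brain cholesterol, which is made locally.

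Tissue of the arrays was checked first. Hcrt (the orexin precursor, highest in lateral hypothalamus) and Pmch (melanin-concentrating hormone) lay at or above 11.80 and 11.72 log2 units on every array. Pituitary and thalamic tissue varied between arrays. The pituitary hormone gene Prl lay above 8 log2 units on 5 arrays (79Q replicates 5 and 8, BACHD replicates 2 and 5, WT replicate 3). The mean of 8 pituitary markers ranged from 6.75 to 8.02 in 79Q, 6.75 to 7.14 in Control, 6.56 to 7.89 in BACHD and 6.37 to 7.75 in WT. The 11 thalamic neuron markers averaged 8.81 to 9.32 in 79Q and 8.81 to 9.12 in Control, but 9.05 to 9.96 in BACHD and 8.80 to 9.47 in WT, and all 11 had a BACHD difference above 0, with a median of 0.35. The part of these tissues in the results below was not tested beyond the values given without the 5 Prl-rich arrays. In whole tissue, fewer cells of a type and less RNA per cell cannot be told apart.

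Across all 19,937 genes the measured differences of the models were weakly correlated. The 79Q effect and the BACHD difference correlated with Pearson's r = 0.123 and Spearman's rho = 0.036, a description across genes, which are not independent and share the arrays of each experiment. Without the 5 Prl-rich arrays r was 0.044. 50.2% of the genes had the same sign in both models, while 39.9% of all genes lay above 0 in 79Q and 55.7% in BACHD. The precision differs little between the models: the 95% interval reached a median of 0.134 log2 units on each side of the 79Q effect and 0.164 on each side of the BACHD difference. Most BACHD differences were small beside their median SE of 0.0716. For the 15,366 genes with a 79Q effect between -0.1 and 0.1 the quartiles were -0.033 and 0.049. Such error pulls r toward 0 and the signs toward an even split, so these values cannot show how much the models share. Benjamini-Hochberg adjustment over all probe sets left 721 probe sets in 79Q and 0 in BACHD (limma), where 1583 had an unadjusted p under 0.05 and the smallest adjusted p was 0.322. A probe set counted as changed in both models would need its larger p to pass, and 0 of 34,760 passed, with a smallest adjusted p of 1.0 (limma). No gene is therefore called for both models, and statements on BACHD below rest on unadjusted p values, sizes and the separation of arrays.

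**Figure D1:**
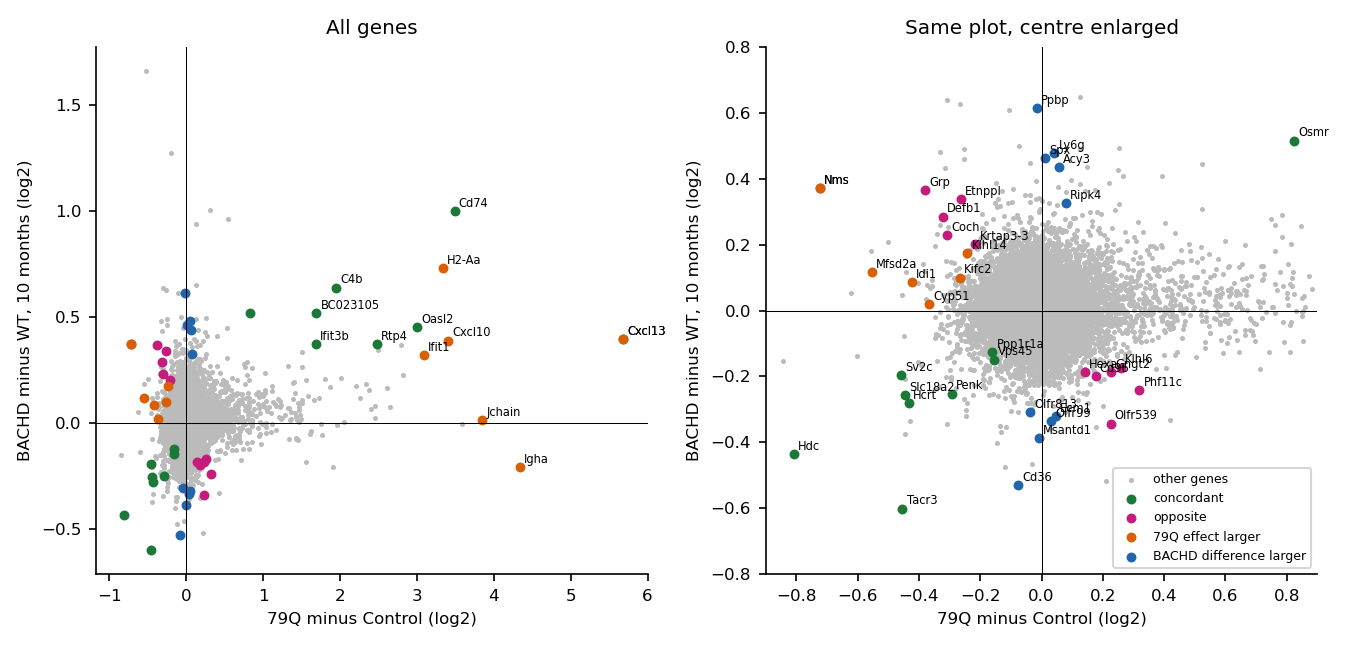
Each point is a gene, placed by its 79Q effect (x axis, log2) and its BACHD difference at 10 months (y axis, log2), with the centre enlarged on the right. Coloured genes were picked by rule as concordant, opposite, larger in 79Q or larger in BACHD (Cxcl13 and Nms meet 2 of these rules). Over all genes rho was 0.036, and Cd74, H2-Aa, C4b and Oasl2 stand high on both axes.

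The shared portion sat at the strong end of the genes that rose in 79Q. 403 genes rose in 79Q (2.02% of the genes compared), and 282 of these, 70.0%, had a BACHD difference above 0, against 55.7% of all genes. The jackknife SE of this share over arrays was 13.1 percentage points, so its distance from 55.7% is uncertain. Without the Prl-rich arrays the share was 62.9%. 46 of the 403 had an unadjusted p under 0.05 and were higher in BACHD (11.41%, against a background of 2.39%), while 2 were lower (0.50%, against 1.55%). In bins of the 79Q effect, the median BACHD difference was 0.008 for genes between -0.1 and 0.1, 0.015 between 0.1 and 0.3, 0.03 between 0.3 and 1, and 0.08 for the 95 genes above 1, of which 80.0% were above 0. The BACHD differences were small beside the 79Q effects. In the 46 genes the median was 0.82 in 79Q and 0.22 in BACHD, and 45 of the 46 were larger in 79Q. Without WT replicate 2 the share above 0 was 61.0%, and without BACHD replicate 4 it was 75.2%.

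The array means of these 403 genes show how evenly the pattern was spread. On the BACHD arrays they were 7.41, 7.44, 7.43, 7.32 and 7.43 log2 units (replicates 1 to 5), and on the WT arrays 7.36, 7.32 and 7.37. BACHD replicate 4 equalled the lowest WT array, and the other 4 BACHD arrays lay above every WT array. The 79Q arrays ranged from 7.76 to 8.47 and the Control arrays from 7.22 to 7.26.

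**Figure D2:**
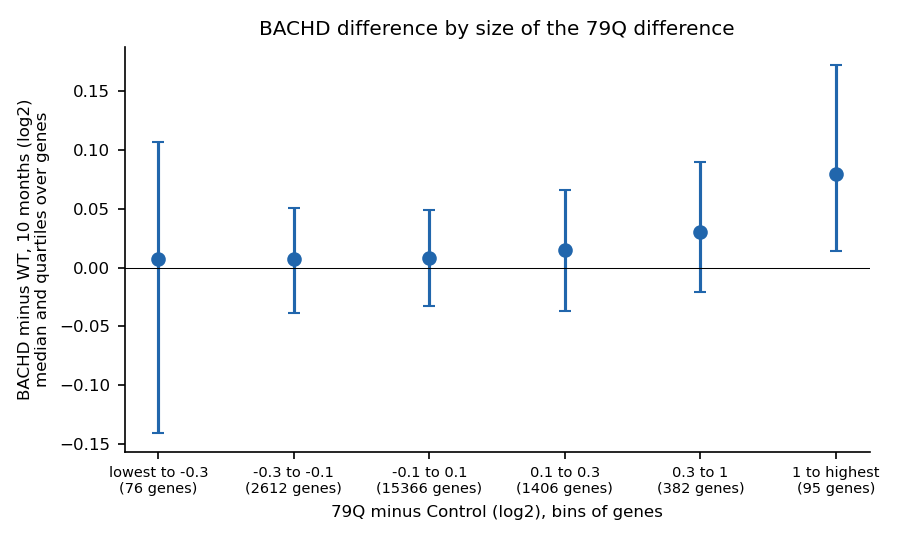
BACHD difference at 10 months (y axis, log2; point, median over genes; bars, lower and upper quartile) of genes binned by their 79Q effect (x axis, log2). The median stays near 0.007 for the bins below 0 and reaches 0.08 in the 95 genes whose 79Q effect exceeds 1.

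Genes that fell in 79Q did not show such a shift in the measured values. 144 genes fell in 79Q (0.722%), and 60 of them, 41.7%, had a BACHD difference below 0, with a median BACHD difference of 0.014 against 0.009 over all genes. The jackknife SE of this share over arrays was 21.5 percentage points, so the contrast with the risen genes is uncertain. 9 of the 144 had an unadjusted p under 0.05 and were lower in BACHD (6.25%, against 1.55% of all genes), and 3 were higher (2.08%, against 2.39%). On these 9 genes the median was -0.25 in 79Q and -0.23 in BACHD. The array means of the 144 genes were 9.77 to 9.80 in BACHD and 9.78 to 9.79 in WT, which overlap, and 9.36 to 9.47 in 79Q against 9.62 to 9.70 in Control.

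With an unadjusted p under 0.05 required in both models, 83 of the 19,937 genes were higher in both and 61 lower in both. 11 were higher in 79Q and lower in BACHD, and 48 lower in 79Q and higher in BACHD. In BACHD alone, 2.39% of all genes were higher and 1.55% lower with an unadjusted p under 0.05. The joint counts were not set against the number that unrelated comparisons would give, so they do not show an excess. The groups overlapped in neither experiment for 30 of the 83 and 8 of the 61. In BACHD alone, 2.19% of all genes had arrays wholly above WT and 1.62% wholly below. The counts moved with single arrays. The 11 genes became 24 without WT replicate 2, 23 without WT replicate 3 and 7 without Control replicate 7, and the 48 became 28 and 31 without BACHD replicates 2 and 5. Without the 5 Prl-rich arrays, 52 genes were higher in both and 15 lower in both. That fit has fewer BACHD and WT arrays, which by itself lowers the number of genes with a p under 0.05.

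Interferon-stimulated genes had more members with an unadjusted p under 0.05 in BACHD than any other list by count (8 of 27, 29.63%), while by share MHC class II (37.5%) and appetite peptides (33.33%) lay above them. Type I interferon induces them through a promoter element to which the factor ISGF3 binds. 25 of the 27 listed genes measured rose in 79Q (background 2.02%), and 24 of 27 had a BACHD difference above 0 (background 55.7%). 8 of 27 had an unadjusted p under 0.05 and were higher in BACHD (background 2.39%). The 8 were Ifit1, Ifit3, Oasl2, Rsad2, Ifih1, Rtp4, Xaf1 and Ddx60, and all 8 rose in 79Q. The list's median was 1.23 in 79Q and 0.087 in BACHD, against -0.019 and 0.009 over all genes.

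The promoters of 2 list members that rose in 79Q and had an unadjusted p under 0.05 in BACHD are shown. The sequences are the 250 bases before the RefSeq start of each gene (GRCm38.p6), written 5' to 3' on the gene's strand, and the capitals mark the core of the interferon-stimulated response element (GAAA, any 2 bases and GAAA), here read on the opposite strand. The promoter of Ifit3 (an antiviral effector) lies at chr19:34583279-34583528 and that of Ifit1 (a sensor of foreign RNA) at chr19:34640639-34640888, both on the plus strand.
Ifit3: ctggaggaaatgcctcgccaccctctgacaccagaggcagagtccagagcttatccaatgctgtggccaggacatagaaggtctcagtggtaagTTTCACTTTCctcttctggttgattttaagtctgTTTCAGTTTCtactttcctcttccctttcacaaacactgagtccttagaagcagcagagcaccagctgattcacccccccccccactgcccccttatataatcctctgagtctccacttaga
Ifit1: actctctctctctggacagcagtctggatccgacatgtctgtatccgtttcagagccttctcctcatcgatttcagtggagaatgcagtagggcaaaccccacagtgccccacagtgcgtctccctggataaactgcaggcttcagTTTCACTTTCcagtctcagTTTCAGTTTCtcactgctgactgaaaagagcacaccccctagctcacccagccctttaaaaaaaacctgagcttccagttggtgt
Both promoters hold the element 2 times. Counted on both strands with overlaps allowed, it was present in 936 of 27,025 promoters of the table (3.46%), in 9 of the 18 interferon-list genes with a promoter entry, in 10 of 35 genes (28.6%) that rose in 79Q with an unadjusted p under 0.05 in BACHD, and in 29 of 260 other genes (11.2%) that rose in 79Q. It was found in 0 of 45 genes that were lower in both models. These counts describe letters in a window and no binding was measured.

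Oasl2 (2'-5' oligoadenylate synthetase-like 2) had the largest BACHD difference of the list. Its 79Q arrays ranged from 10.18 to 11.35 log2 units (median 10.71), and the Control arrays read 7.65, 7.72, 7.73, 7.75 and 7.84. The BACHD arrays read 8.43, 8.39, 8.38, 8.16 and 8.48, and the WT arrays 7.80, 7.88 and 8.07. The groups overlapped in neither experiment. Oasl2 rose by 3.0 (SE 0.19) in 79Q, the BACHD difference was 0.45 (SE 0.09), and the effects themselves differed by 2.54 (SE 0.22, adjusted p = 4.07e-06, limma). Rtp4, an interferon-induced chaperone, rose by 2.48 (SE 0.19) and was higher by 0.37 (SE 0.07) in BACHD, whose arrays read 7.21, 7.16, 7.34, 7.09 and 7.38 against 6.90, 6.90 and 6.80. Xaf1, a proapoptotic interferon target, rose by 1.32 (SE 0.17) and was higher by 0.27 (SE 0.07) in BACHD without overlap. For Ifit1, which rose by 3.08 (SE 0.22), the BACHD arrays read 6.49, 6.75, 6.90, 6.54 and 6.90 and overlapped WT at 6.41, 6.28 and 6.5. Without WT replicate 2 the BACHD difference of Ifit1 was 0.26 and its p no longer under 0.05. Ifit3b (1.69, SE 0.19, in 79Q and 0.37, SE 0.09, in BACHD) shares near-identical sequence with Ifit3, so that their probe sets may not be independent. The difference between effects passed (adjusted p under 0.05) in 19 of the 27 genes, each time with the larger effect in 79Q (0.803% over all genes).

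MHC class II genes, which present antigen on microglia and immune cells, held the gene that ranked first among the concordant ones by the smaller of its differences, Cd74. 5 of 8 listed genes rose in 79Q (2.02% over all genes), and all 8 had a BACHD difference above 0 (55.7% over all genes). 3 of the 8 had an unadjusted p under 0.05 and were higher in BACHD (Cd74, H2-Aa and H2-Ab1, against 2.39% over all genes). Cd74, the invariant chain of class II, ranged from 9.12 to 10.94 (median 10.07) on the 79Q arrays and read 6.36, 6.5, 6.55, 6.76 and 6.83 in Control. It read 8.13, 8.17, 7.77, 7.60 and 8.59 in BACHD and 6.67, 7.13 and 7.36 in WT. Every BACHD array lay above every WT array. The 79Q effect was 3.49 (SE 0.27, adjusted p = 6.21e-07, limma) and the BACHD difference 1.0 (SE 0.24), with an exact two-sided permutation p of 0.0179, the smallest that 5 against 3 arrays can give. H2-Aa, a class II alpha chain, rose by 3.33 (SE 0.25) and was higher by 0.73 (SE 0.24) in BACHD, where replicate 4 at 6.93 overlapped WT at 6.34, 6.95 and 6.81. Without WT replicate 1 its BACHD difference was 0.55 and no longer had a p under 0.05. Of the 10 MHC class I and peptide loading genes, 8 rose in 79Q (2.02% over all genes) and 9 were above 0 in BACHD (55.7% over all genes). In BACHD 0 of 10 had an unadjusted p under 0.05 (2.39% higher and 1.55% lower over all genes).

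Complement genes rose in 79Q in 11 of 15 cases (2.02% over all genes), and 4 of 15 had an unadjusted p under 0.05 and were higher in BACHD (2.39% over all genes; C4b, C4a, Serping1 and C1s1). C4b, the classical pathway component, ranged from 10.02 to 11.22 (median 10.49) in 79Q and read 8.51, 8.52, 8.58, 8.59 and 8.85 in Control. In BACHD it read 10.02, 10.06, 9.86, 9.73 and 10.00, and in WT 9.26, 9.10 and 9.52. It rose by 1.95 (SE 0.18) in 79Q and was higher by 0.64 (SE 0.11) in BACHD, again with no overlap in either experiment. C4a is a near-identical copy of C4b and their signals may not be separable. Serping1, the C1 inhibitor, rose by 1.02 (SE 0.135) and was higher by 0.24 (SE 0.10) in BACHD. The list as a whole was not shifted in BACHD, with 9 of 15 above 0 (55.7% over all genes) and a median of 0.013.

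Of the reactive astrocyte genes, 5 of 15 rose in 79Q (2.02% over all genes), and 14 of 15 were above 0 in BACHD (55.7% over all genes). Their median was 0.31 in 79Q and 0.097 in BACHD. Osmr, the oncostatin M receptor, ranged from 7.36 to 8.17 (median 7.63) in 79Q and read 6.66, 6.79, 6.83, 6.93 and 7.0 in Control, 7.38, 7.75, 7.56, 7.17 and 7.74 in BACHD and 7.06, 7.0 and 6.96 in WT. Its 79Q effect of 0.82 (SE 0.14) exceeded the BACHD difference of 0.52 (SE 0.13) by 0.31, with a 95% interval from -0.09 to 0.70 (adjusted p = 0.641, limma). Lcn2, a secreted iron-siderophore binder, turned the order around. It read 7.12, 7.97, 7.57, 6.80 and 7.04 in BACHD and 6.27, 6.26 and 6.37 in WT, a difference of 1.0 (SE 0.24), while it rose by 0.31 (SE 0.08) in 79Q. The effects differed by -0.69 (95% interval from -1.16 to -0.23), which did not pass the adjustment (adjusted p = 0.234, limma). Serpina3n, a protease inhibitor, had near-equal values, 0.21 (SE 0.06, adjusted p = 0.091, limma) in 79Q and 0.20 (SE 0.05) in BACHD, and the 95% interval of their difference ran from -0.17 to 0.21. The 12 general astrocyte markers did not follow, with medians of -0.024 and 0.039.

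**Figure D3:**
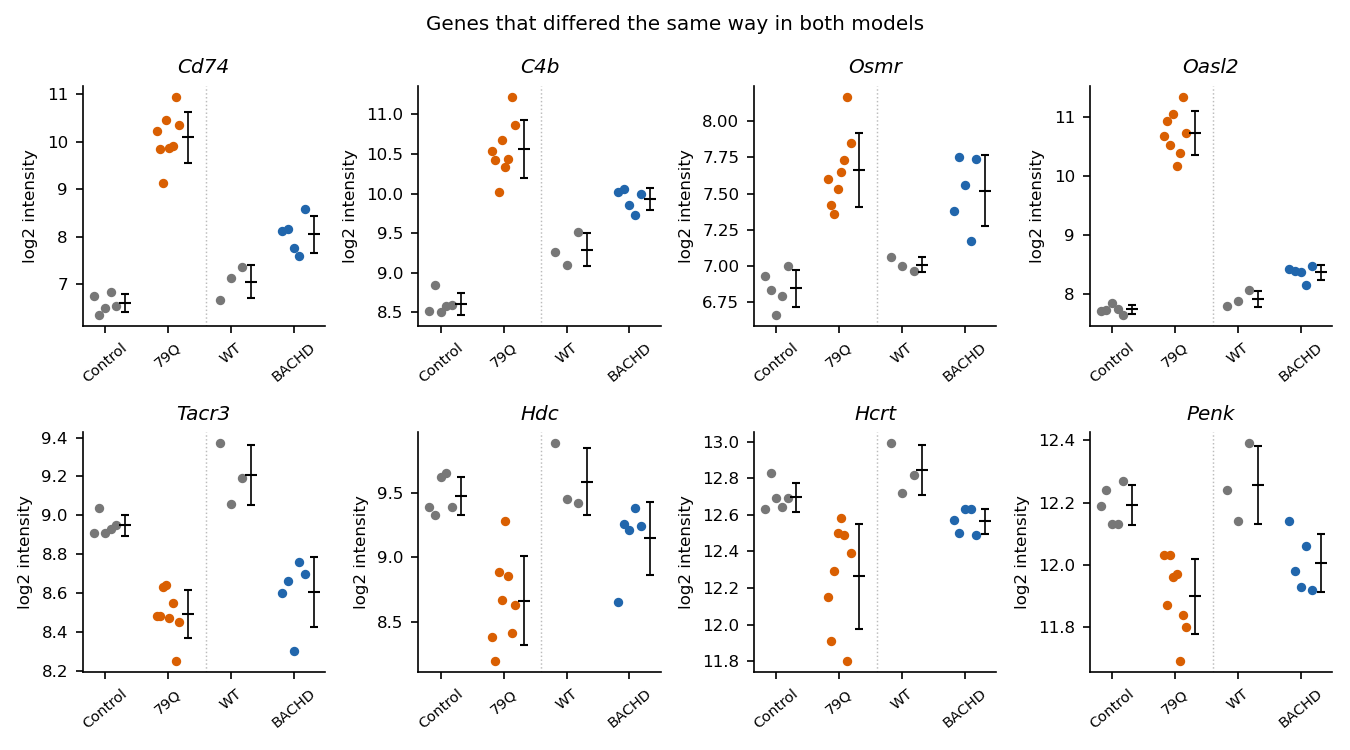
Log2 intensity (y axis) of 8 genes that differed the same way in both models, with 1 point per array and the mean and SD of each group beside it. A dotted line separates the AAV experiment (Control, 79Q) from the 10 months experiment (WT, BACHD), which were normalized apart, so that levels are compared only within each side. Cd74, C4b, Osmr and Oasl2 were higher and Tacr3, Hdc, Hcrt and Penk lower in each model without overlap.

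The 8 genes that were lower in both models with groups that overlapped in neither experiment were Tacr3, Hdc, Hcrt, Slc18a2, Penk, Sv2c, Vps45 and Ppp1r1a. The 95% interval of the difference between effects held 0 for 7 of the 8, with Sv2c as the exception, but the intervals were wide, and for Hdc the interval ran from -0.88 to 0.14. These genes were chosen for a p under 0.05 in both models.

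Tacr3, the neurokinin B receptor of the reproductive axis, ranked first of the 8 by the smaller of its differences. The 79Q arrays ranged from 8.25 to 8.64 (median 8.48) and the Control arrays read 8.91, 8.91, 8.93, 8.95 and 9.04. The BACHD arrays read 8.60, 8.66, 8.30, 8.76 and 8.70, and the WT arrays 9.37, 9.06 and 9.19. Tacr3 fell by 0.45 (SE 0.06, adjusted p = 0.000403, limma) in 79Q, and the BACHD difference was -0.60 (SE 0.11), with an exact two-sided permutation p of 0.0179. The difference between effects was 0.15, with a 95% interval from -0.10 to 0.39. Its BACHD difference kept an unadjusted p under 0.05 under every alternative run, between -0.68 and -0.52. The other 8 genes of the reproductive axis list held no further gene with an unadjusted p under 0.05 in BACHD.

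Of the genes of amine neurons, Hdc, Slc18a2 and Th had an unadjusted p under 0.05 and the same sign in both models, and Hdc alone of these fell in 79Q after adjustment. Hdc, which makes histamine, ranged from 8.20 to 9.28 (median 8.65) in 79Q and read 9.33, 9.39, 9.39, 9.62 and 9.65 in Control, 8.66, 9.26, 9.21, 9.38 and 9.24 in BACHD and 9.88, 9.45 and 9.42 in WT. BACHD replicate 1 lay furthest from WT and replicate 4 within 0.1 of it. Hdc fell by 0.81 (SE 0.14, adjusted p = 0.00373, limma) in 79Q, and the BACHD difference was -0.44 (SE 0.17). The BACHD difference of Hdc was -0.29 without WT replicate 1 and -0.45 without BACHD replicate 3, and in both cases its p was no longer under 0.05. Slc18a2, the vesicular monoamine transporter, read 9.36, 9.44, 9.57, 9.68 and 9.63 in BACHD and 9.91, 9.75 and 9.71 in WT. Its difference was -0.45 (SE 0.175, adjusted p = 0.238, limma) in 79Q and -0.26 (SE 0.08) in BACHD, or -0.20 without WT replicate 1, where the p was no longer under 0.05. Th, the rate-limiting enzyme of dopamine synthesis, had differences of -0.45 (SE 0.17, adjusted p = 0.21, limma) and -0.21 (SE 0.09), with groups that overlapped in both experiments, and the BACHD p of Th was no longer under 0.05 without BACHD replicates 1, 2 or 3 or WT replicates 1 or 3 (-0.21 to -0.15). Ddc, the next enzyme of that pathway, did not follow, at -0.29 (SE 0.14) in 79Q and 0.001 (SE 0.08) in BACHD. Of the 14 monoamine genes 11 had the same sign in both models (background 50.2%), and 3 had an unadjusted p under 0.05 and were lower in BACHD (background 1.55%).

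Appetite peptides leaned the same way. All 15 listed genes lay below 0 in 79Q and 11 of 15 in BACHD, with medians of -0.29 and -0.12. Over all genes 39.9% lay above 0 in 79Q and 55.7% in BACHD. Penk alone fell in 79Q after adjustment. Those with an unadjusted p under 0.05 in BACHD numbered 5 of 15 (1.55% lower over all genes), namely Hcrt, Pmch, Gal, Tac1 and Penk. Hcrt ranged from 11.80 to 12.58 (median 12.34) in 79Q and read 12.63, 12.64, 12.69, 12.69 and 12.83 in Control, 12.57, 12.50, 12.63, 12.63 and 12.49 in BACHD and 12.99, 12.72 and 12.82 in WT. Its differences were -0.43 (SE 0.12, adjusted p = 0.0865, limma) and -0.28 (SE 0.07). Penk, the enkephalin precursor, fell by 0.29 (SE 0.07, adjusted p = 0.0297, limma) in 79Q, and the BACHD arrays at 12.14, 11.98, 11.93, 12.06 and 11.92 lay below WT at 12.24, 12.14 and 12.39, a difference of -0.25 (SE 0.07). Penk missed the adjusted threshold in 79Q without 79Q replicate 6, 7 or 8 or any 1 Control array (-0.31 to -0.26), and its BACHD difference was -0.15 without the Prl-rich arrays. Gal, the galanin precursor, had differences of -0.43 and -0.28. Cartpt, another peptide of appetite control, was at -0.44 (SE 0.14) in 79Q and 0.12 (SE 0.07) in BACHD.

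Synaptic vesicle and signalling genes completed the set. Sv2c, a vesicle protein of basal ganglia and hypothalamic neurons, fell by 0.46 (SE 0.10) in 79Q and differed by -0.20 (SE 0.06) in BACHD, with a difference between effects of -0.26 (95% interval from -0.48 to -0.05, adjusted p = 0.359, limma). Without Control replicate 2 Sv2c missed the adjusted threshold in 79Q (-0.44), and without WT replicate 1 its BACHD difference was -0.16 with a p no longer under 0.05. Vps45, which serves vesicle fusion, fell by 0.16 (SE 0.04, adjusted p = 0.0397, limma) and differed by -0.15 (SE 0.05) in BACHD, or by -0.13 without WT replicate 2, where the p was no longer under 0.05, and its 79Q call was lost without any 1 of the 13 arrays except 79Q replicates 3 and 5 (-0.16 to -0.14). Ppp1r1a, a phosphatase inhibitor regulated by cAMP, was at -0.16 (SE 0.05, adjusted p = 0.0938, limma) and -0.13 (SE 0.04), or -0.11 in BACHD without WT replicate 1, where the p was no longer under 0.05.

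The effects of the models differed beyond their spread in 189 genes (adjusted p under 0.05 for the difference between effects, limma over all 34,760 probe sets). 160 had the higher effect in 79Q (0.803% of genes) and 29 the lower (0.145%). Leaving out WT replicate 1 or 3 gave 102 and 101 genes in place of 160. The 29 became 14 to 19 without 79Q replicate 8, BACHD replicates 1 or 5, Control replicates 1, 2 or 5, or WT replicates 1 or 3. 159 of the 160 also rose and 19 of the 29 also fell in 79Q.

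Chemokines and immunoglobulin genes were the extreme of the 79Q side. Cxcl13, which attracts B cells, ranged from 10.70 to 12.13 (median 10.84) in 79Q against 5.10, 5.14, 5.40, 5.46 and 5.61 in Control. In BACHD it read 6.33, 6.66, 6.59, 6.29 and 6.78 against 6.27, 5.95 and 6.18 in WT. The 79Q effect of 5.68 (SE 0.28) exceeded the BACHD difference of 0.39 (SE 0.13) by 5.29 (SE 0.30, adjusted p = 6.71e-09, limma), although the direction was shared. The BACHD difference was 0.30 without WT replicate 2, with a p no longer under 0.05. Cxcl10, a T cell attractant, rose by 3.40 (SE 0.29) in 79Q, and BACHD at 6.26, 6.96, 7.03, 5.90 and 6.69 overlapped WT at 6.17, 6.11 and 6.26, a difference of 0.39 (SE 0.25). Igha, the constant region of immunoglobulin A, ranged from 7.44 to 13.24 (median 12.13) in 79Q, where only replicate 3 lay at the level of Control (6.85 to 7.56). In BACHD it read 6.58, 6.46, 6.38, 5.33 and 5.76 and in WT 6.27, 6.27 and 6.39, with no higher level. The effects of Igha differed by 4.55 (SE 1.01, adjusted p = 0.0376, limma), and this call was lost without any 1 of the 21 arrays except 79Q replicates 3 and 7, at 4.35 to 4.67. Jchain, which joins immunoglobulin polymers, gave 3.85 (SE 0.49) and 0.01 (SE 0.08). Of the 9 B cell and plasma cell markers all 9 were above 0 in 79Q and 4 in BACHD. All 11 T cell and NK cell markers were above 0 in BACHD and 10 in 79Q. Over all genes 39.9% were above 0 in 79Q and 55.7% in BACHD.

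Cholesterol genes separated the models in the other direction. 11 of 20 genes of synthesis and uptake fell in 79Q (0.722% over all genes), and all 20 lay below 0 there, where 39.9% of all genes lay above 0. In BACHD 9 of 20 were below 0 and 11 above 0 (55.0%, against 55.7% of all genes). None of the 20 had an unadjusted p under 0.05 in BACHD (2.39% higher and 1.55% lower over all genes). The list's median was -0.24 in 79Q and 0.004 in BACHD. Idi1, the isopentenyl diphosphate isomerase, ranged from 8.77 to 9.0 (median 8.83) in 79Q and read 9.16, 9.18, 9.29, 9.30 and 9.42 in Control. In BACHD it read 9.91, 10.09, 9.94, 9.94 and 10.07, and in WT 9.84, 9.85 and 10.02. It fell by 0.42 (SE 0.07) in 79Q, the BACHD difference was 0.09 (SE 0.06), and the effects differed by -0.51 (SE 0.08, adjusted p = 0.00252, limma). With the mean of all its probe sets the difference of Idi1 was -0.44 and missed the threshold. Cyp51, lanosterol demethylase, fell by 0.37 (SE 0.07) and stood at 0.02 (SE 0.05) in BACHD, with a difference between effects of -0.39 (95% interval from -0.53 to -0.24). Hmgcs1, at the entry of the pathway, fell by 0.24 (SE 0.06) and was at 0.06 (SE 0.05) in BACHD. The difference between effects passed in 4 of the 20 (over all genes 0.803% with the higher effect in 79Q and 0.145% with the lower). Mfsd2a, the lysolipid carrier of brain endothelium, fell by 0.55 (SE 0.10) against a BACHD difference of 0.12 (SE 0.07), and the difference of -0.67 (adjusted p = 0.0383, limma) missed the threshold without any 1 of the 21 arrays except 79Q replicates 3, 5, 6 and 7, BACHD replicate 1 and Control replicate 1, at -0.71 to -0.61.

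The promoters of Idi1 (chr13:8885356-8885605, plus strand) and Cyp51 (chr5:4104698-4104947, minus strand) are shown for 2 list members that fell in 79Q and whose difference between effects passed. They are shown as above, on the gene's strand, with the capitals on CCAAT, the box bound by NF-Y, or on its reverse complement.
Idi1: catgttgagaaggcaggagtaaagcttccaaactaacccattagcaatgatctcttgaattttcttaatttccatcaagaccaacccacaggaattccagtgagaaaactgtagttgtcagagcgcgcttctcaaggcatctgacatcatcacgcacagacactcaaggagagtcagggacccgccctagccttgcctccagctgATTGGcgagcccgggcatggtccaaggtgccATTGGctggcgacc
Cyp51: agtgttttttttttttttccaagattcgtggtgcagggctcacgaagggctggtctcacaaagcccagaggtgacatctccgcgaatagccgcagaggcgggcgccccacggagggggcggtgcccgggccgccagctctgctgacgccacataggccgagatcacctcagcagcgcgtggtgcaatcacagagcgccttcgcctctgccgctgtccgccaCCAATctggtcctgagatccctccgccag
The box was present in all 16 promoters of the list found in the table, in 37.5% of all 27,025 promoters, and in 14 of the 35 genes (40%) that rose in 79Q with an unadjusted p under 0.05 in BACHD. A core of the sterol response element (TCAC, any base and CCAC), the site of the sterol-sensing factor SREBP, was found in 1 of the 16 (6.25%) and in 1.22% of all promoters. Only this string was counted, so sites that differ from it are missed, and the count does not show that the other promoters lack an SREBP site.

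**Figure D4:**
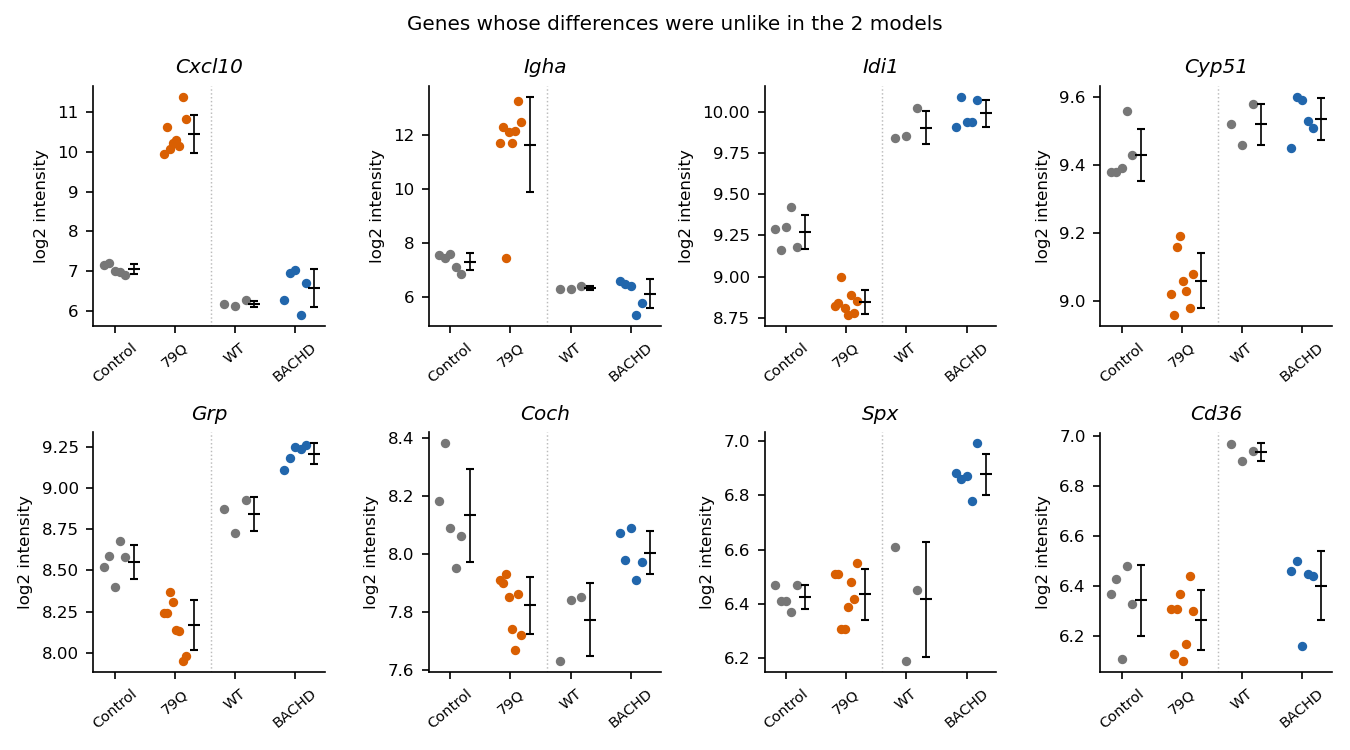
Log2 intensity (y axis) of 8 genes with unlike differences in the models, drawn as in the plot of concordant genes (1 point per array, mean and SD beside them, dotted line between the separately normalized experiments). Cxcl10 and Igha rose and Idi1 and Cyp51 fell in 79Q, with overlapping groups in the 10 months experiment, Grp and Coch went opposite ways, and Spx and Cd36 separated BACHD from WT alone.

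Grp and Nms, peptides of the suprachiasmatic nucleus, the circadian pacemaker, had opposite signs in the models. Grp, gastrin-releasing peptide, ranged from 7.95 to 8.37 (median 8.19) in 79Q and read 8.40, 8.52, 8.58, 8.59 and 8.68 in Control. In BACHD it read 9.11, 9.18, 9.25, 9.24 and 9.26 and in WT 8.87, 8.73 and 8.93. The groups overlapped in neither experiment. The 79Q effect was -0.38 (SE 0.11, adjusted p = 0.0858, limma), the BACHD difference 0.37 (SE 0.06), and they differed by -0.75 (SE 0.11, adjusted p = 0.000642, limma). Nms, neuromedin S of the same nucleus, fell by 0.72 (SE 0.16) in 79Q and was higher by 0.37 (SE 0.14) in BACHD, with an overlap of BACHD and WT. Its 79Q call was lost without Control replicates 2 or 5 (-0.69), and its BACHD p was no longer under 0.05 without BACHD replicates 1 or 4 or WT replicates 1 or 3 (0.26 to 0.37). The difference between effects of Nms (-1.10, adjusted p = 0.0236, limma) missed the threshold without BACHD replicate 1, WT replicates 1 or 3 or Control replicates 2 or 5, at -1.06 to -0.98. The third peptide of this nucleus, Vip, had differences of -0.84 (SE 0.25, adjusted p = 0.101, limma) and -0.15 (SE 0.16). Coch, a secreted matrix protein, was at -0.31 (SE 0.09) and 0.23 (SE 0.07), with a difference of -0.54 (SE 0.10, adjusted p = 0.0124, limma), or -0.47 and no call without WT replicate 1.

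Other genes lower in 79Q and higher in BACHD were Etnppl (an astrocytic lipid enzyme, -0.26 and 0.34), Defb1 (a defensin, -0.32 and 0.29) and Krtap3-3 (a keratin-associated protein, -0.22 and 0.20), whose differences between effects did not pass. Their BACHD p was no longer under 0.05 without WT replicates 1 or 3 for Etnppl (0.31 and 0.20), WT replicate 2 for Defb1 (0.22), and BACHD replicates 1, 2 or 5 or WT replicates 1 or 2 for Krtap3-3 (0.14 to 0.20). Without the Prl-rich arrays the BACHD difference was 0.16 for Etnppl and 0.25 for Krtap3-3, again with no p under 0.05. In the reverse direction, Gngt2, a G protein gamma subunit, rose by 0.23 (SE 0.05) and was lower by 0.19 (SE 0.05) in BACHD, with a difference of 0.41 (SE 0.08, adjusted p = 0.0106, limma) that became 0.38 and lost its call without WT replicate 3. Its 79Q call was lost without 79Q replicates 4, 6, 7 or 8 or Control replicates 1, 2, 5 or 7 (0.20 to 0.23). The olfactory receptor gene Olfr539, at only 4.28 to 5.35 log2 units on the arrays, had differences of 0.23 and -0.34, and its difference between effects of 0.57 (adjusted p = 0.0142, limma) lost its call without WT replicates 1 or 2 (0.57 and 0.53). Hexa, the lysosomal hexosaminidase, was at 0.14 (SE 0.05) and -0.19 (SE 0.06), and Phf11c, Klhl6 and Cd96 at 0.18 to 0.32 in 79Q and -0.24 to -0.17 in BACHD, with no call for the difference. The BACHD p was no longer under 0.05 without WT replicates 1 or 3 for Hexa (-0.13 and -0.18), BACHD replicates 2, 3 or 4 or WT replicates 2 or 3 for Cd96 (-0.22 to -0.15), and BACHD replicates 2, 4 or 5 or WT replicates 1 or 3 for Klhl6 (-0.17 to -0.14). Without the Prl-rich arrays the BACHD difference was -0.11 for Klhl6, -0.15 for Cd96, -0.18 for Hexa and -0.17 for Gngt2, with no p under 0.05.

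Differences seen in BACHD and not in 79Q were smaller. 40 genes were higher and 21 lower in BACHD with an unadjusted p under 0.05 there and for the difference between effects, no overlap with WT, and a 79Q effect under 0.25 times as large. Spx, the peptide spexin, read 6.88, 6.86, 6.87, 6.78 and 6.99 in BACHD against 6.61, 6.19 and 6.45 in WT, and 6.31 to 6.55 in 79Q against 6.37 to 6.47 in Control. Its effects, 0.01 (SE 0.06) and 0.46 (SE 0.09), differed by -0.45 (SE 0.09, adjusted p = 0.0258, limma). The call for Spx was lost without BACHD replicate 5, Control replicates 1 or 7 or WT replicates 2 or 3, at -0.47 to -0.34. Cd36, a fatty acid receptor of endothelium and myeloid cells, read 6.46, 6.5, 6.16, 6.45 and 6.44 in BACHD against 6.97, 6.90 and 6.94 in WT, a difference of -0.53 (SE 0.08), and its 79Q effect was -0.08 (SE 0.07). Their difference of 0.46 did not pass (adjusted p = 0.0716, limma). The others were Ppbp (a platelet chemokine, 0.61), Ly6g (a neutrophil antigen, 0.48), Acy3 (an aminoacylase, 0.44) and Ripk4 (a kinase, 0.33), which were higher in BACHD, and Msantd1 (-0.39), Olfr99 (-0.34), Ecm1 (an extracellular matrix protein, -0.32) and Olfr813 (-0.31), which were lower, all without a call for the difference between effects. The difference of Ppbp was 0.49 without WT replicate 3, where its p was no longer under 0.05.

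**Figure D5:**
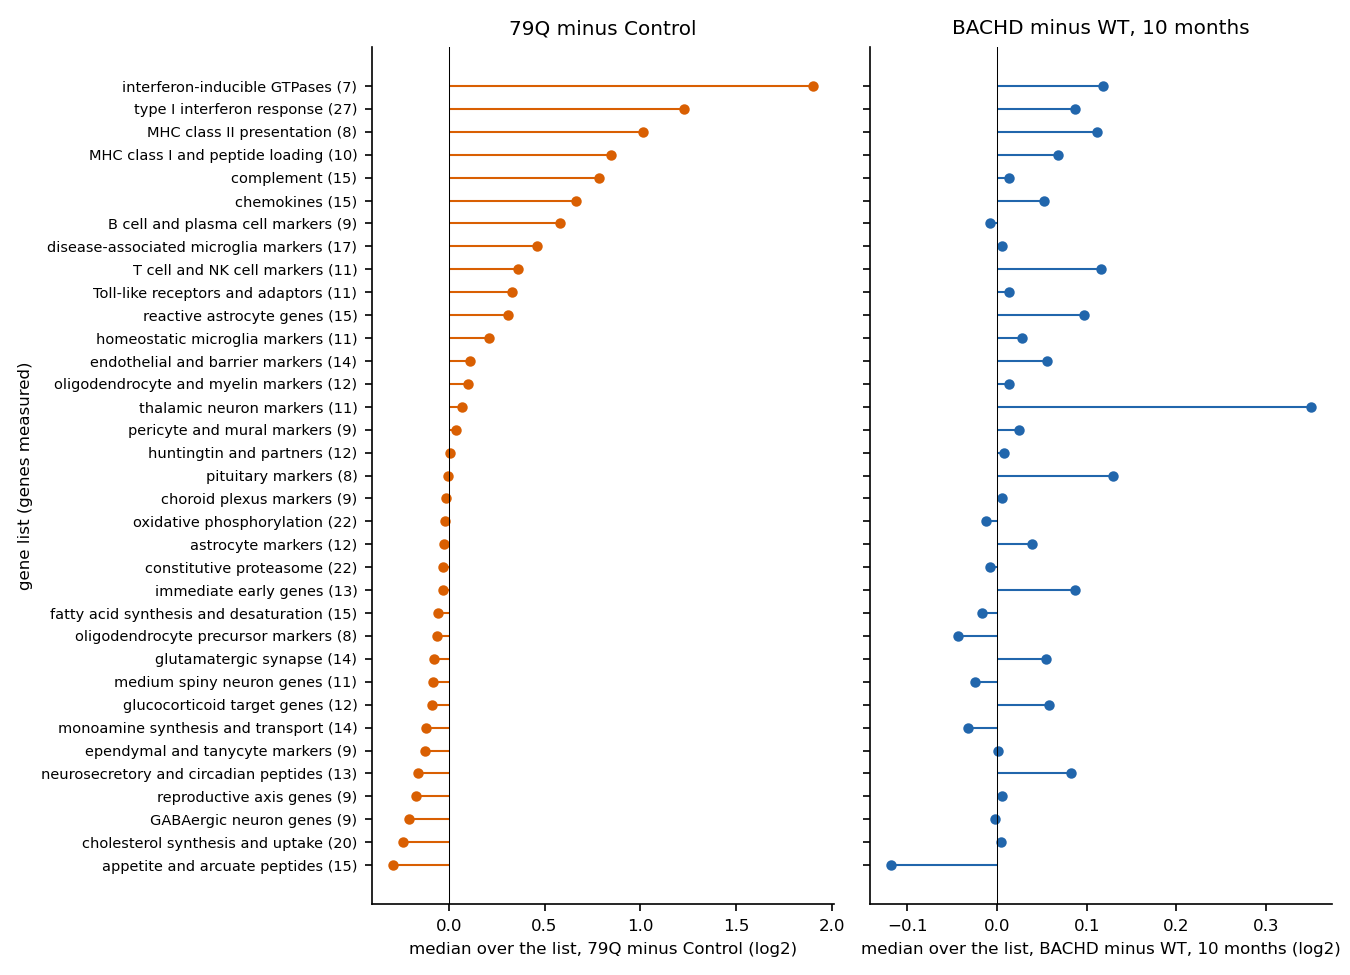
Median difference over the measured genes of each list with 7 or more genes, in 79Q (left) and BACHD at 10 months (right), in log2 units on axes of different length. Interferon and MHC lists lie to the right in both panels, appetite peptides to the left in both, and cholesterol genes to the left only in 79Q. Thalamic markers lie at 0.35 in BACHD and at 0.066 in 79Q.

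Lists with medians near 0 in both models included oxidative phosphorylation (22 genes, medians of -0.020 and -0.012), the constitutive proteasome (22 genes, -0.031 and -0.008) and huntingtin and partners (12 genes, 0.007 and 0.008, where Rest, a transcriptional repressor of neuronal genes, rose by 0.24 in 79Q and stood at -0.02 in BACHD). Glutamatergic synapse genes had the same sign in 4 of 14 cases (50.2% over all genes), with medians of -0.08 and 0.055. None of the 14 was called in 79Q or had an unadjusted p under 0.05 in BACHD. Immediate early genes (13) had medians of -0.032 and 0.087.

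The BACHD difference was also set beside other effects of the series. The 18Q group (n = 5) received the same vector with 18 CAG repeats, and its effect, which shares the Control arrays with the 79Q effect, correlated with the BACHD difference at r = 0.133 (rho = 0.065), next to 0.123 for 79Q. The difference 79Q minus 18Q, in which Control drops out, gave r = -0.072. The 79Q effect against BACHD minus WT at 2 months gave r = -0.034. For the shared immune genes the 18Q effect was of like size, with 3.33 for Cd74, 2.15 for C4b, 3.40 for Oasl2 and 1.06 for Osmr. For these shared neuronal genes it was nearer to 0 than the 79Q effect: Tacr3 (-0.21), Hdc (-0.17), Sv2c (-0.17), Ppp1r1a (-0.085), Hcrt (-0.08), Penk (-0.03) and Slc18a2 (0.15). Vps45, which was also lower in both models, is not part of this comparison. The listed genes were chosen for a p under 0.05 in 79Q and in BACHD, and 18Q played no part in the choice. Such a choice by itself favours a larger 79Q effect. Their 79Q and 18Q effects were not tested against each other. In the paper, a direct array comparison of both vector groups left no significant probe set after adjustment. Its qRT-PCR did report a significant difference in Hcrt between 18Q and 79Q. Its gene set analysis reported suppressed neuroactive ligand-receptor genes in 79Q against 18Q. On the arrays, an effect of repeat length on these genes taken singly is not shown. At 2 months, the BACHD difference of Tacr3 was -0.40, while those of Cd74 (0.05) and Oasl2 (0.05) were near 0.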

How the data were processed

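RNA of each hypothalamus was hybridised to its own Affymetrix Mouse Gene ST 1.0 array. The deposited values are on a log2 scale and were produced by the authors with Robust Multi-Array Averaging, which corrects background, equalises the distributions of arrays and summarises probes, in affy 1.70.0 under R 4.1.1 (limma 3.48.3 served their tests), per the submitters' processing notes. Pairs of AAV arrays shared 17 to 60 identical values, pairs of 10 months arrays 53 to 109 and pairs across both 0 to 2, so separate normalization runs were assumed and levels were compared only within each experiment. No pair of arrays was identical.

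Differences were fitted in R 4.3.3 with limma 3.58.1 (lmFit and eBayes) on all 34,760 probe sets, with Benjamini-Hochberg adjustment over all of them: 79Q vs. Control within the 18 AAV arrays, BACHD vs. WT on 8 arrays, and the difference between both effects on the 21 arrays. A p for both models is the larger of the 2. Every SE and adjusted p is from these fits. An exact two-sided permutation test over arrays was added for single genes, whose smallest p is 0.0179 (5 against 3) and 0.000777 (8 against 5). Of 21,640 probe sets with 1 symbol, the brightest on average across the 21 arrays stood for each of 19,937 genes, and probe sets with several symbols (1321) or none in the platform table (11,799) were tested without a name. 452 of 506 list entries matched. Named genes followed a rule: concordant genes with an unadjusted p under 0.05 in both models and no overlap (8 per direction by the smaller difference), opposite genes (6 per direction), genes called in 79Q with the largest called difference between effects (6 per direction), genes lower or higher in BACHD with a 79Q effect under 0.25 times as large (5 per direction), up to 4 members per described list, and genes the study names. Gal, Rest, Ddx60 and Rsad2 fall outside it and were named after their values were seen. The members and lists were chosen with earlier results of these data known. Steps were tested on simulated data. Promoters came from RefSeq (GRCm38.p6), 250 bases before the start. The number of mice limits the precision, and array medians lay between 7.28 and 7.45 log2 units. Alternatives are given in the closing section. The fit without the Prl-rich arrays was chosen after seeing the data.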

Additional observations from a re-analysis of the deposited data

Results flagged for a closer look

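The difference between the 79Q and BACHD effects passed the adjusted threshold (limma) for 160 genes with the higher effect in 79Q and 29 with the lower, as described above.

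Among 165 groups of 5 or 8 arrays of the named genes, 11 held an array whose gap to its neighbour was large for the group's range, and chance flags about 1 in 20 groups. The gap is given as a share of the range, with the log2 values of the array and its neighbour. In BACHD, Hdc was low on replicate 1 (8.66 against 9.21, gap 0.76), Cd36 low on replicate 3 (6.16 against 6.44, gap 0.82) and Gh, growth hormone of the pituitary, high on replicate 2 (9.64 against 7.48, gap 0.73), which is also the array with the highest Prl. In 79Q, replicate 3 was low for Igha (7.44 against 11.67, gap 0.73) and Jchain (6.83 against 9.07, gap 0.55), and replicate 7 was high for Cxcl13 (12.13 against 11.27, gap 0.60). In Control, replicate 2 was high for C4b (8.85 against 8.59, gap 0.77). Control replicate 5 was apart for 4 genes, Cyp51 (9.56 against 9.43, gap 0.74), Klhl14 (7.0 against 7.16, gap 0.84), Olfr539 (4.68 against 4.89, gap 0.71) and Ripk4 (5.39 against 5.56, gap 0.74).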

How the results depend on the processing

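Replicate numbers did not pair the arrays. Deviations of same-numbered arrays correlated between -0.16 and 0.10, and with a replicate block the 61 genes lower in both models became 17, the 11 genes higher in 79Q and lower in BACHD 7, the 48 opposite ones 30, and the genes called for the difference between effects 57 (higher in 79Q) and 7 (lower). Array centring, the fit without 18Q, the mean of probe sets and leaving out genes of neighbouring tissues kept every count within 1.5 times of its value and every share and r within the jackknife error over arrays. That error was 13.1 and 21.5 percentage points for the shares of risen and fallen genes. Without 18Q, r, the same-sign share and the calls for the difference between effects could not change, since 18Q does not enter them. Leaving out genes of neighbouring tissues does not test the part of these tissues in the other genes. With centring, the split of genes higher and lower in both models was 62 to 83 in place of 83 to 61. The cause of the following moves was not tested. Without the Prl-rich arrays (chosen after seeing the data), r was 0.044, and the counts were 52 higher in both, 15 lower in both, 22 lower in 79Q and higher in BACHD, and 49 and 3 for the difference between effects. Without these arrays the BACHD p was no longer under 0.05 for Cd96, Cxcl13, Ecm1, Etnppl, Gngt2, H2-Aa, Hdc, Hexa, Ifit1, Klhl6, Krtap3-3, Msantd1, Nms, Penk, Ppp1r1a, Th and Vps45. This fit lacks BACHD replicates 2 and 5 and WT replicate 3, so fewer arrays alone can end a p under 0.05. Some of these differences shrank (Penk, -0.15 against -0.25), and others did not (Hdc, -0.58 against -0.44, and Nms, 0.40 against 0.37). Fewer arrays and pituitary tissue cannot be told apart here. A threshold of 0.01 in both models left 17 higher in both, 6 lower in both, 1 and 2 of opposite sign. An intensity trend gave 73 genes lower in 79Q and higher in BACHD and 48 with a lower effect in 79Q. Brighter probe sets alone gave 57 of the latter. Adding the standard errors of both fits gave 349 and 182 calls for the difference between effects, and a joint fit of 26 arrays 100 and 17. Spearman's rho was 0.036.

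Leaving out each array in turn gave r from 0.087 to 0.154, same-sign shares from 48.7% to 51.3%, 61.0% to 75.2% of risen genes above 0 in BACHD, 27.3% to 45.5% of fallen genes below 0, 61 to 112 genes higher in both, 43 to 68 lower in both, 7 to 24 and 28 to 51 of opposite sign, and 101 to 224 and 14 to 41 called for the difference between effects. For 55 named genes, no called difference changed sign under any of these settings, but leaving out 1 array of the fit ended the unadjusted p under 0.05 of 17 of 41 genes in BACHD (39 of 328 fits), the adjusted call of 5 of 25 in 79Q (30 of 325) and that of 8 of 22 for the difference between effects (65 of 462). With 3 WT arrays, differences in BACHD below about 0.164 log2 units are within the median 95% interval.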

Other observations

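Read from the BACHD side, 476 genes were higher at 10 months with an unadjusted p under 0.05, and 232 of them (48.7%) were above 0 in 79Q, against 39.9% of all genes. 310 were lower, and 207 of them (66.8%) were below 0 in 79Q, with 33.2% above 0 against the same 39.9% of all genes. Within the 476 the models correlated across genes at r = 0.395 (rho = 0.236), and within the 310 at r = 0.165 (rho = 0.0), with no p given.

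BACHD replicate 4 had the lowest value of the BACHD group for Cd74 (7.60), H2-Aa (6.93), C4b (9.73), Osmr (7.17), Oasl2 (8.16) and Lcn2 (6.80), and the highest for Hdc (9.38) and Tacr3 (8.76). These genes were chosen for mention after their values were seen. Among the thalamic markers, Prkcd read 9.64, 9.93, 10.46, 8.22 and 9.11 in BACHD against 8.64, 7.62 and 9.28 in WT, so that replicate 4 was also the lowest BACHD array for this gene.

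Endothelial and barrier markers differed by gene. Abcb1a, the drug efflux pump, was at 0.11 (SE 0.08) in 79Q and 0.28 (SE 0.11) in BACHD, Cd36 at -0.08 and -0.53, and Mfsd2a at -0.55 and 0.12. Of the 14 markers, 9 had the same sign in both models (50.2% over all genes).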
